A study of Mus musculus with 14 samples.

Results

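Transcripts of 36 genes of the ATF4 amino acid stress response and of the cytosolic tRNA synthetases were followed in mouse bone marrow monocytes. They were picked by symbol: ATF4 with its partners and targets, amino acid transporters and cytosolic synthetases. All 36 symbols matched an identifier among the 55487 in the count table, and all 36 had enough counts to be tested. Ddit3 matched a second identifier too, which had 0 counts in all 14 libraries. The members fell into 4 regulators of the ATF4 and CHOP branch, 4 stress effectors, 3 genes of translation control, 3 of amino acid synthesis, 6 amino acid transporters and 16 cytosolic synthetases. The monocytes, 90 to 95% pure per the labels, came from AhR-deficient or wild-type mice, AhR being the aryl hydrocarbon receptor, a ligand-activated transcription factor. They were kept ex vivo for 3 h with 20 ng/mL of IL-4, the cytokine of alternative activation, or in medium without it. The groups were AhR-deficient in IL-4 and AhR-deficient in medium (n = 3 each, numbers 4, 5 and 6), then wild type in IL-4 and wild type in medium (n = 4 each, numbers 1, 2, 3 and 7). The labels give no allele, strain, age or sex. They do not say whether a number is an animal, a pool or a culture, so p-values measure only the spread between these samples, which may be technical.

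ATF4 is the transcription factor of the integrated stress response. Kinases such as GCN2, which senses uncharged tRNA, phosphorylate the initiation factor eIF2, which lowers general translation and favours translation of the Atf4 message, so ATF4 protein can change while its mRNA does not. ATF4 binds composite C/EBP-ATF elements and induces genes of amino acid transport and synthesis, tRNA synthetases, and regulators such as CHOP (Ddit3) and TRIB3. Aminoacyl-tRNA synthetases load each tRNA with its amino acid and are needed for all protein synthesis.

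Libraries held 33432502 to 42885079 counts. On the second principal component, wild-type number 7 lay at 4.14 in IL-4 and 1.32 in medium, against 18.94 to 39.2 for the other wild-type libraries and -32.56 to -22.65 for the AhR-deficient ones. The gene Ahr was higher in the AhR-deficient libraries than in wild type, both in IL-4 (log2 difference 0.71 ± 0.14 SE, edgeR adjusted p = 0.0270) and in medium (0.69 ± 0.14, adjusted p = 0.0144). Counts per gene cannot show a deleted exon, so they do not show the deficiency here, and whether an exon is deleted was not tested. The X-linked Xist was high in all AhR-deficient libraries and at or near 0 in all wild-type ones, so genotype and the sex of the animals cannot be told apart. The 8 monocyte markers were all detected, and summed to 14125 to 15803 CPM (the count of a gene relative to the scaled total of its library) in AhR-deficient IL-4, 22031 to 25572 CPM in AhR-deficient medium, 14155 to 15550 CPM in wild-type IL-4 and 22045 to 25255 CPM in wild-type medium. Most of this sum was Lyz2, and single markers differed between genotypes. Ccr2, the chemokine receptor gene of classical monocytes, had 477, 564 and 482 CPM in AhR-deficient and 1658, 1684, 1642 and 1871 CPM in wild type in IL-4 (-1.75 ± 0.31, adjusted p = 0.0204), and 302, 471 and 369.9 CPM in AhR-deficient and 1729, 1424, 1478 and 478 CPM in wild type in medium (-1.75 ± 0.31, adjusted p = 0.00985). In medium, wild-type number 7 lay near the AhR-deficient libraries for Ccr2. Fcgr1 was higher in AhR-deficient cells in both conditions and Irf8 in IL-4. The 6 eosinophil, basophil or mast cell markers summed to 53.8 to 178 CPM in AhR-deficient and 100.4 to 328 CPM in wild type in IL-4, and to 57.3 to 195 CPM in AhR-deficient and 113 to 341 CPM in wild type in medium. The log2 difference of each of these 6 was below 0 in both conditions and none passed (edgeR). The 8 neutrophil markers summed to 247 to 436 CPM in AhR-deficient and 369 to 702 CPM in wild type in IL-4, and to 272 to 512 CPM in AhR-deficient and 332 to 798 CPM in wild type in medium. The 4 progenitor markers summed to 87.3 to 106 CPM in AhR-deficient and 52.7 to 94.4 CPM in wild type in IL-4, and, without overlap, to 91.2 to 114 CPM in AhR-deficient and 46.1 to 86.7 CPM in wild type in medium. The 5 B or plasma cell markers summed to 32.8 to 69.5 CPM in AhR-deficient and 6.12 to 36.4 CPM in wild type in IL-4, and to 37.9 to 65.7 CPM in AhR-deficient and 7.60 to 30.6 CPM in wild type in medium. None of the neutrophil or progenitor markers passed between genotypes in either condition (edgeR). The 2 B or plasma cell markers with enough counts to be tested did not pass either. The part of these marker shifts in the results was not tested, and in bulk samples fewer cells of a type and less RNA per cell cannot be told apart.

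The core of the ATF4 element was found in the promoters of many members. The letters TGATGNAA (N is any base) were searched on both strands of the 300 bases around each start given by RefSeq for GRCm38.p6 (250 before, 50 after). They were found in 11 of the 25 member genes with a window, or 44.0%, and in 4.51% of all 27025 genes with a window. By class they were in 5 of 9 synthetases (Aars, Gars, Iars, Tars, Yars), 2 of 3 synthesis genes (Asns, Pycr1), 2 of 4 stress effectors (Chac1, Vldlr), 1 of 3 transporters (Slc1a4), 1 of 4 regulators (Trib3) and 0 of 2 translation genes. Members without a window were Eif4ebp1, Slc7a5, Slc1a5, Slc7a3, Cars, Hars, Lars, Nars, Rars, Vars and Wars. The 4 stretches that follow show the element upstream of the RefSeq start in members described later, read 5′ to 3′ on the gene's strand, with the matched bases in capitals. Matches that begin with TT are the element on the opposite strand. A match is a description of the sequence, not a measured site.
Chac1 (chr2:119351023-119351082, plus strand, 193 to 186 bases before the start): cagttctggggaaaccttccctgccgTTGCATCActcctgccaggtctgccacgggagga
Pycr1 (chr11:120643818-120643877, minus strand, 103 to 96 bases before the start): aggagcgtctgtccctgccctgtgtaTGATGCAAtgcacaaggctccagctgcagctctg
Gars (chr6:55037945-55038000, plus strand, 30 to 23 bases before the start): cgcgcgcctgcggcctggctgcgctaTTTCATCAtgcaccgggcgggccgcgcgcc
Tars (chr15:11399659-11399699, minus strand, 15 to 8 bases before the start): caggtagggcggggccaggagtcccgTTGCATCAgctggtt

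Levels of the members spanned a wide range. Per kilobase of the longest coding transcript, Atf4 itself stood at 292 ± 8.41 CPM per kb in AhR-deficient IL-4, 304 ± 15.3 in AhR-deficient medium, 246 ± 5.59 in wild-type IL-4 and 248 ± 12.05 in wild-type medium (mean ± SD), where it was the highest of the 36. Nars, the tRNA synthetase for asparagine, followed in wild-type medium at 164 ± 17.6 CPM per kb. Gars, for glycine (115 ± 10.05), and the glutamine carrier gene Slc38a2 (108 ± 9.77 CPM per kb) came next and differed by less than their SD, as did the exchanger subunit genes Slc7a5 (87.2 ± 9.87) and Slc3a2 (86.9 ± 7.87 CPM per kb). At the low end were Vldlr, the very-low-density lipoprotein receptor gene, at 0.0632 ± 0.0169 CPM per kb, and the arginine transporter gene Slc7a3 at 0.162 ± 0.0255 CPM per kb. Ddit3 (13.6 ± 1.01), Chac1 (12.5 ± 2.92) and Trib3 (8.22 ± 1.28 CPM per kb) lay between these ends.

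**Figure D1:**
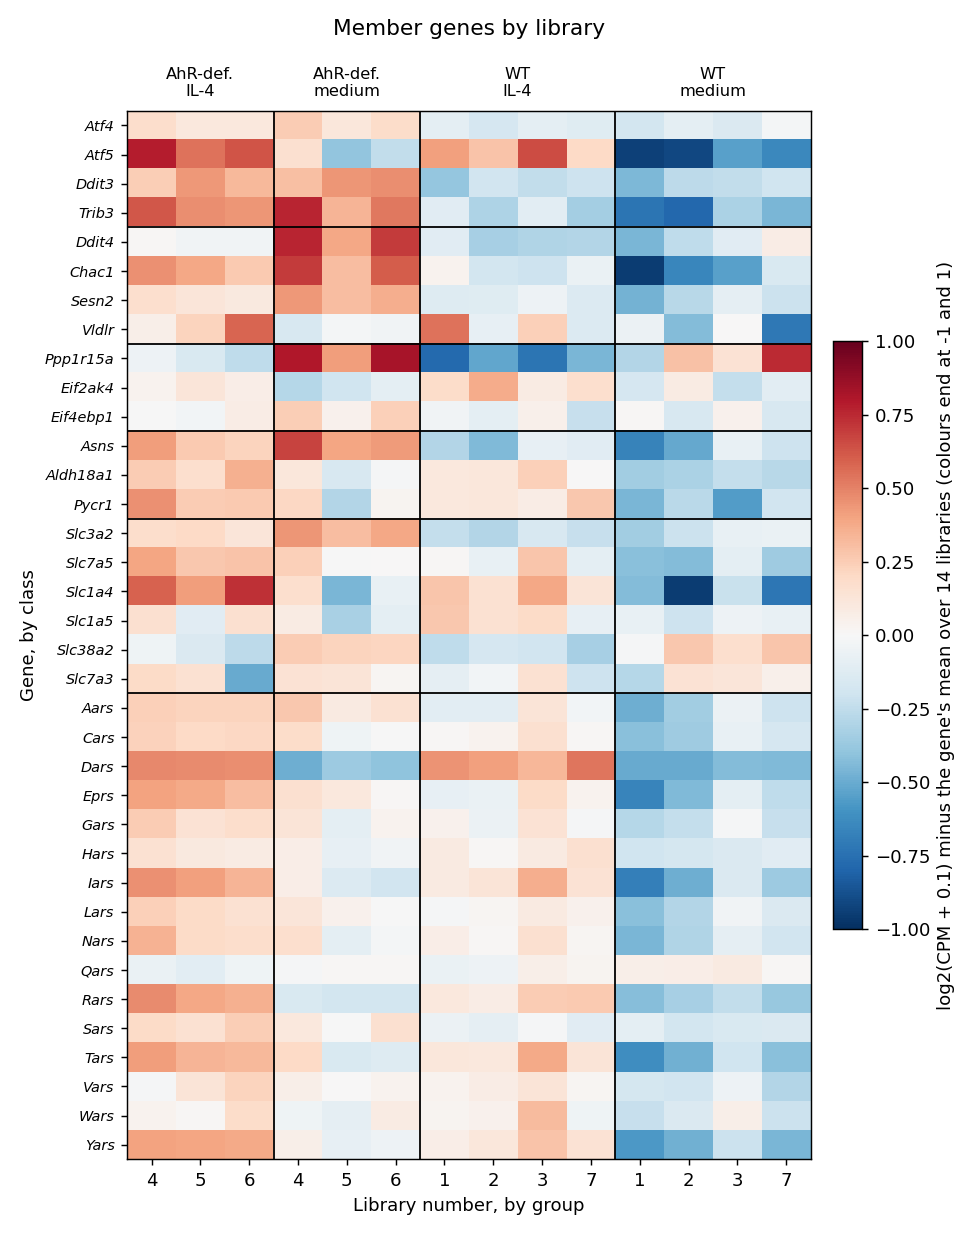
Level of each of the 36 members (rows, by class) in each of the 14 libraries (columns, by group), as log2(CPM + 0.1) minus the gene's mean over all libraries. AhR-deficient IL-4 is above the mean for most synthetase rows, Ddit4 and Ppp1r15a stand out in AhR-deficient medium, and wild-type medium is below the mean for most rows.

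The genotype comparison asks how the AhR-deficient cells differed from wild type in each condition. In medium, members of 5 of the 6 classes were higher in AhR-deficient cells, led by Trib3, Chac1, Asns, Ddit4, Ddit3 and Sesn2, and 0 of the 3 translation control genes passed. Of the 36 members, 18 passed the test as higher (edgeR quasi-likelihood test, Benjamini-Hochberg adjusted p under 0.05 over 14754 genes) and 0 as lower. Over all genes 8.11% passed, 4.16% as higher and 3.95% as lower. The members' median log2 difference was 0.30, against 0.01 over all genes. In IL-4, 5 members passed as higher and 0 as lower (0.956% and 0.664% of all genes, 1.62% together), with a median of 0.20 against -0.01 over all genes. Groups did not overlap, with AhR-deficient higher, for 18 members in IL-4 (9.28% of all genes) and 21 in medium (10.5%). With AhR-deficient lower, they did not overlap for 0 members in IL-4 (8.91% of all genes) and 1 in medium, Qars (9.45%). In either direction the share of all genes was 18.2% in IL-4 and 20% in medium.

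All 4 regulators were higher in AhR-deficient cells in medium. Atf4 (ENSMUSG00000042406.8, GRCm38 chromosome 15, 80255184 to 80257541) had 521, 495 and 496 CPM in AhR-deficient IL-4 and 431, 410.5, 431 and 423 CPM in wild-type IL-4. It had 551, 498 and 525 CPM in AhR-deficient medium and 405, 431, 418 and 454 CPM in wild-type medium. Every AhR-deficient library lay above every wild-type one, a modest step (log2 difference 0.25 ± 0.05, adjusted p = 0.0319 in IL-4 and 0.30 ± 0.05, adjusted p = 0.00761 in medium, edgeR). Trib3 (ENSMUSG00000032715.9, GRCm38 chromosome 2, 152337422 to 152344032), a pseudokinase gene whose product restrains ATF4 and AKT, had 37.8, 34.00 and 33.3 CPM in AhR-deficient IL-4 and 22.8, 19.8, 22.9 and 19.4 CPM in wild-type IL-4. It had 41.7, 31.2 and 35.5 CPM in AhR-deficient medium and 14.8, 14.2, 19.7 and 17.9 CPM in wild-type medium. The groups were apart in both conditions (0.72 ± 0.12, adjusted p = 0.0138 in IL-4 and 1.12 ± 0.12, adjusted p = 3.36e-04 in medium). Ddit3 (ENSMUSG00000025408.15), which encodes CHOP, had 17.6, 20.04 and 18.6 CPM in AhR-deficient IL-4 and 11.3, 13.02, 12.5 and 12.9 CPM in wild-type IL-4. It had 18.3, 20.2 and 20.5 CPM in AhR-deficient medium and 10.8, 12.3, 12.5 and 12.9 CPM in wild-type medium. The groups of this gene were also apart in both conditions (0.60 ± 0.08, adjusted p = 0.00204 in IL-4 and 0.69 ± 0.08, adjusted p = 4.15e-04 in medium). Ddit3 shares 68 exonic bases with Mars on the opposite strand, and the strand setting of the counting is not given in the sources used here. Mars had 120196 counts in total, against 8076 for Ddit3. It had 248, 255 and 254 CPM in AhR-deficient IL-4 and 219, 217, 245 and 224 CPM in wild-type IL-4. In medium Mars had 250, 243 and 234 CPM in AhR-deficient and 188, 179, 222 and 191 CPM in wild type. Its part in the Ddit3 counts was not tested. Atf5, an ATF4 relative and target, was higher in medium (0.61 ± 0.14, adjusted p = 0.0223) and did not pass in IL-4 (0.26 ± 0.14, adjusted p = 0.349).

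Of the stress effectors, 3 of 4 were higher in AhR-deficient medium. Chac1 (ENSMUSG00000027313.3, GRCm38 chromosome 2, 119351229 to 119354381), whose product degrades glutathione, had 48.6, 37.1 and 45.8 CPM in AhR-deficient medium and 15.5, 19.05, 20.5 and 26.9 CPM in wild-type medium. The lowest AhR-deficient library stood above the highest wild-type one (1.10 ± 0.14, adjusted p = 0.00177). In IL-4 it had 41.3, 39.3 and 36.02 CPM in AhR-deficient and 30.8, 26.3, 26.03 and 28.7 CPM in wild type, apart but not called (0.48 ± 0.14, adjusted p = 0.104). Sesn2 (ENSMUSG00000028893.8), which encodes a leucine sensor that holds back the growth kinase complex mTORC1, had 128, 118 and 122 CPM in AhR-deficient medium and 68.3, 78.3, 89.4 and 81.7 CPM in wild-type medium (0.63 ± 0.07, adjusted p = 4.62e-04). Ddit4, which encodes the mTORC1 inhibitor REDD1, had 37.6, 28.97 and 35.96 CPM in AhR-deficient medium and 16.1, 18.5, 20.4 and 23.3 CPM in wild-type medium (0.80 ± 0.11, adjusted p = 0.00268). In IL-4 neither Sesn2 (0.24 ± 0.07, adjusted p = 0.1) nor Ddit4 (0.24 ± 0.11, adjusted p = 0.277) passed, although their AhR-deficient libraries all lay above the wild-type ones. Vldlr, at under 1 CPM in every library, did not pass in either condition. The 3 genes of translation control did not pass in either condition. Ppp1r15a, which encodes the phosphatase subunit GADD34 that reverses eIF2 phosphorylation, had differences of 0.46 ± 0.18, adjusted p = 0.201 in IL-4 and 0.43 ± 0.18, adjusted p = 0.148 in medium. In medium, Eif4ebp1, for the translation repressor 4E-BP1, had a difference of 0.24 ± 0.07, adjusted p = 0.0607, and Eif2ak4, which encodes GCN2, of -0.09 ± 0.08, adjusted p = 0.528.

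**Figure D2:**
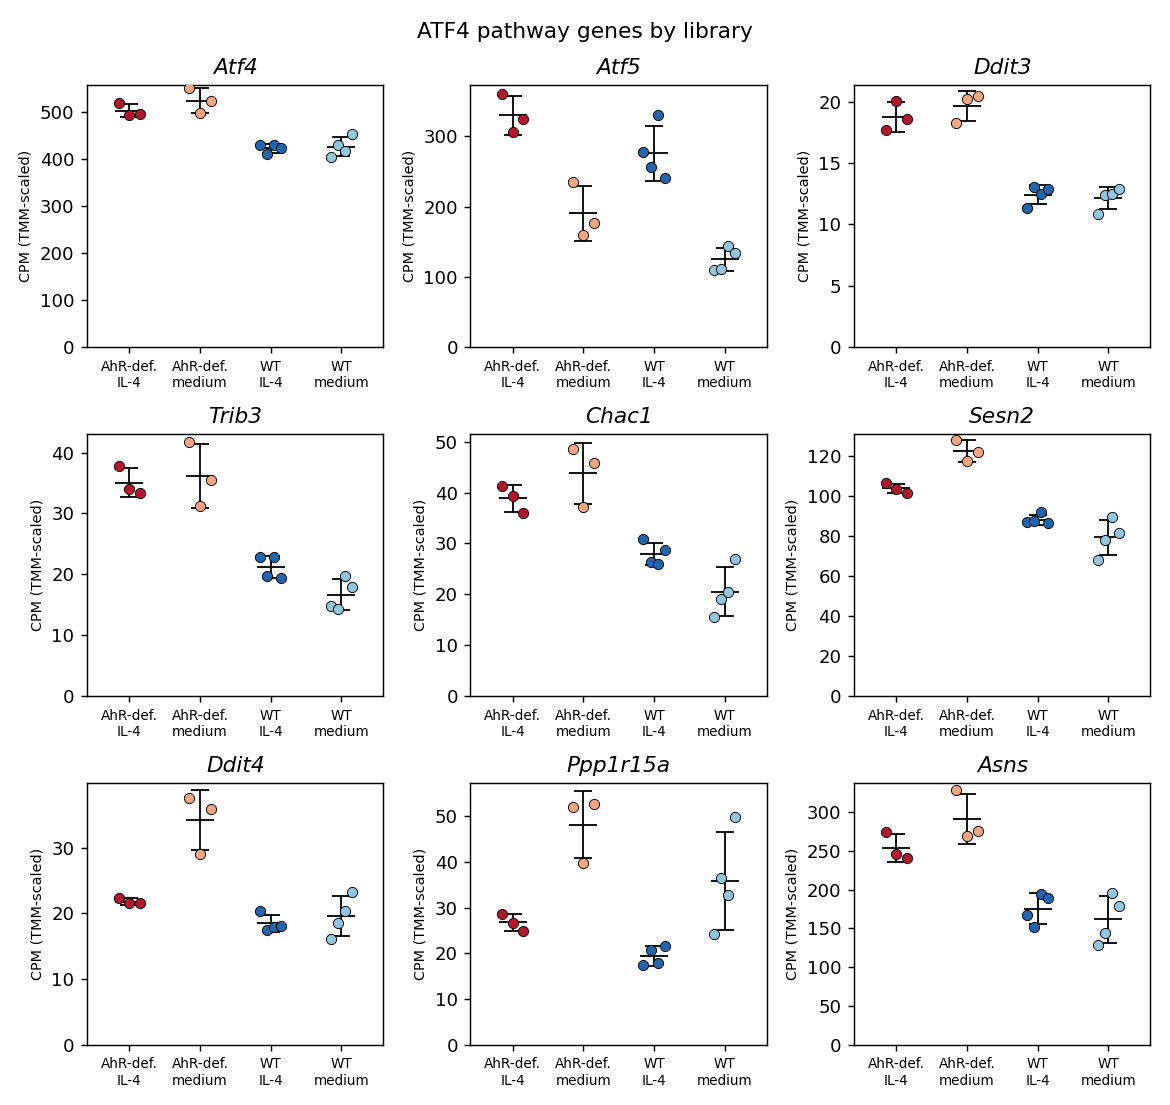
TMM-scaled CPM of 9 genes (panels) in the 4 groups, with 1 point per library and black marks for mean ± SD. In medium, every AhR-deficient library lies above every wild-type one for each gene shown except Ppp1r15a, and in AhR-deficient cells every IL-4 library lies below every medium library for Ddit4, Sesn2 and Ppp1r15a.

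Of the amino acid synthesis genes, 2 of 3 were higher in AhR-deficient medium. Asns (ENSMUSG00000029752.12, GRCm38 chromosome 6, 7675169 to 7693254), whose enzyme makes asparagine, had 328, 269.6 and 276 CPM in AhR-deficient medium and 129, 144, 195 and 178 CPM in wild-type medium (0.85 ± 0.13, adjusted p = 0.00444). In IL-4 it had 274, 246 and 240.2 CPM in AhR-deficient and 167, 152, 194 and 189.9 CPM in wild type, apart but short of the threshold (0.53 ± 0.13, adjusted p = 0.0567). Aldh18a1, for the entry enzyme of proline synthesis, was higher in medium (0.28 ± 0.07, adjusted p = 0.0304), and Pycr1, for the last enzyme of that route, was not called (0.38 ± 0.15, adjusted p = 0.136). Of the 6 transporter genes, the calls were the subunits of the large neutral amino acid exchanger. The heavy chain gene Slc3a2 had 311, 316 and 299 CPM in AhR-deficient IL-4 and 234, 225, 246 and 235 CPM in wild-type IL-4 (0.39 ± 0.06, adjusted p = 0.0138). It had 374, 341 and 359.6 CPM in AhR-deficient medium and 216, 238, 262 and 263 CPM in wild-type medium (0.55 ± 0.06, adjusted p = 6.49e-04). The light chain gene Slc7a5 was higher in medium (0.40 ± 0.10, adjusted p = 0.0308) and not called in IL-4 (0.28 ± 0.10, adjusted p = 0.161). The glutamine carrier genes Slc1a5 and Slc38a2, the neutral amino acid exchanger gene Slc1a4 and Slc7a3 were not called in either condition, with log2 differences of -0.07 to 0.46.

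Of the 16 synthetases, 7 were higher in AhR-deficient medium. They were Aars for alanine (0.44 ± 0.09, adjusted p = 0.0133), Yars for tyrosine (0.40 ± 0.08, adjusted p = 0.0106) and Sars for serine (0.23 ± 0.05, adjusted p = 0.0142). The others were Eprs for glutamate and proline (0.44 ± 0.11, adjusted p = 0.0263), Tars for threonine (0.40 ± 0.10, adjusted p = 0.0329), Cars for cysteine (0.29 ± 0.08, adjusted p = 0.0394) and Lars for leucine (0.27 ± 0.07, adjusted p = 0.0420). In IL-4 Sars was the 1 synthetase called, at 204, 199 and 213 CPM in AhR-deficient and 172, 168, 178 and 166 CPM in wild type (0.26 ± 0.05, adjusted p = 0.0230). Qars for glutamine (-0.05 ± 0.04, adjusted p = 0.441) and Dars for aspartate (0.05 ± 0.05, adjusted p = 0.538) were among the 9 not called in medium. Aars shares 1326 exonic bases on the same strand with Exosc6, which had 0 counts in total. The part of this overlap in the Aars counts was not tested.

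The size of these counts depended on single libraries, as did the count over all genes. In medium, Trib3, Chac1, Sesn2, Ddit3, Ddit4, Asns and Slc3a2 passed in each of the 7 fits that left out 1 library, and these were the 7 calls without AhR-deficient number 4. Without that library Atf4, Atf5, Aldh18a1, Slc7a5, Aars, Cars, Eprs, Lars, Sars, Tars and Yars missed the threshold (adjusted p = 0.0554 to 0.209), and over all genes the calls numbered 95, against 1197 with every library. There were 11 calls without wild-type number 2, when Atf5, Aldh18a1, Slc7a5, Cars, Eprs, Lars and Tars missed it, and 12 without wild-type number 1, when those genes other than Eprs did. Over all genes the calls were 367 without wild-type number 2 and 661 without number 1. Aldh18a1, Slc7a5, Cars, Lars and Sars also missed it without AhR-deficient number 6, and Eprs and Lars without number 5. With the fit restricted to the 7 libraries in medium, 5 members passed (Ddit3, Trib3, Chac1, Sesn2 and Slc3a2), of 59 genes in all. In IL-4, Ddit3 passed in each of 7 such fits and was the 1 call without AhR-deficient number 4 or 5 or wild-type number 2. The calls there numbered 3 without AhR-deficient number 6 or wild-type number 1 or 7. Over all genes 239 were called in IL-4, against 24, 30 and 172 without AhR-deficient number 4, 5 and 6, and 34, 35 and 106 without wild-type number 1, 2 and 7. Atf4 and Sars each passed in 1 of the 7 fits, and Trib3 and Slc3a2 in 4.

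**Figure D3:**
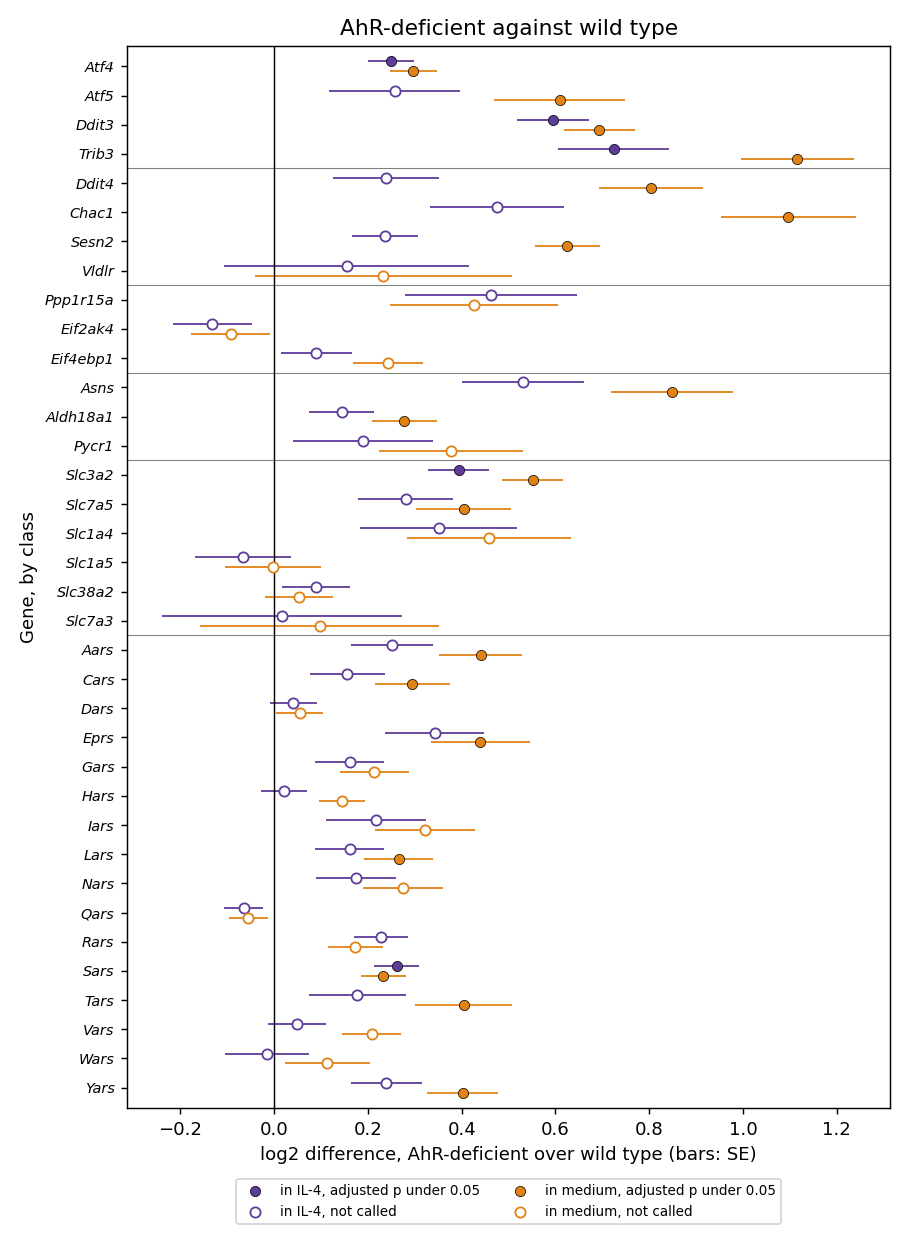
Log2 difference of AhR-deficient over wild type for each of the 36 members (rows, by class), in IL-4 (purple) and in medium (orange), with SE bars and filled points where the adjusted p is under 0.05. Filled points number 5 in IL-4 and 18 in medium, the values reach 1.12 (Trib3 in medium), and no filled point lies below 0.

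The IL-4 comparison asks what the cytokine changed within each genotype. In both, several synthetase transcripts and genes of amino acid supply rose while Ppp1r15a and Slc38a2 fell, and Atf4 mRNA itself did not pass. In AhR-deficient cells 9 of 36 members rose and 5 fell (15.4% and 14.2% of all genes, 29.5% together), with a median log2 change of 0.13 against -0.01 over all genes. In wild type 21 rose and 2 fell (19.4% and 16.5% of all genes, 35.9% together), with a median of 0.25 against 0.01. The same 9 members rose in both genotypes, the same 2 fell in both, and 0 were called in opposite directions. The wild-type medium libraries serve in this comparison and in that of genotype in medium. Libraries were paired by the numbers in their titles, and the labels do not say what a number is. With the number as a block, 14 members rose and 7 fell in AhR-deficient cells (18.4% and 17.8% of all genes, 36.2% together), and 24 rose and 2 fell in wild type (22.8% and 19.9%, 42.7% together). Groups did not overlap for 18 higher and 6 lower members in AhR-deficient cells (22.3% and 21.4% of all genes, 43.7% together). In wild type this held for 15 higher and 2 lower members (18.4% and 14.9% of all genes, 33.2% together). The summed monocyte markers were lower in IL-4 than in medium in both genotypes, and their part in these changes was not tested.

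Synthetase genes made up most of the rises, with 5 of 16 in AhR-deficient cells and 13 of 16 in wild type, and 0 fell in either. Dars (ENSMUSG00000026356.15, GRCm38 chromosome 1, 128363707 to 128417368) had 139, 138 and 138 CPM in AhR-deficient IL-4 and 70.9, 77.6 and 75.3 CPM in AhR-deficient medium. In wild type it had 136, 132, 125 and 145 CPM in IL-4 and 70.2, 70.1, 73.7 and 73.3 CPM in medium. No IL-4 library came near a medium library in either genotype (0.89 ± 0.05, adjusted p = 2.65e-08 in AhR-deficient and 0.91 ± 0.05, adjusted p = 3.36e-09 in wild type). Rars, for arginine, had 95.9, 90.3 and 88.4 CPM in AhR-deficient IL-4 and 62.2, 61.01 and 60.96 CPM in AhR-deficient medium (0.58 ± 0.06, adjusted p = 8.23e-06). In wild type it had 74.2, 72.99, 82.3 and 83.1 CPM in IL-4 and 51.4, 54.9, 58.3 and 53.2 CPM in medium (0.52 ± 0.05, adjusted p = 4.05e-06). The groups were again apart in both genotypes. Iars, for isoleucine, rose by 0.49 ± 0.11, adjusted p = 0.00508 in AhR-deficient and 0.59 ± 0.10, adjusted p = 3.30e-04 in wild type. Yars had 206, 205 and 203 CPM in AhR-deficient IL-4 and 162, 147 and 151 CPM in medium (0.42 ± 0.08, adjusted p = 0.00125). It had 163, 168, 189.9 and 172 CPM in wild-type IL-4 and 105, 112, 134 and 113 CPM in medium (0.58 ± 0.07, adjusted p = 1.73e-05). Each of these 4 passed in all 6 fits without 1 library in AhR-deficient cells and all 8 in wild type. Tars rose by 0.38 ± 0.11, adjusted p = 0.0185 in AhR-deficient and 0.61 ± 0.10, adjusted p = 2.00e-04 in wild type. Its call in AhR-deficient was lost without medium number 5 or 6 or IL-4 number 4 (adjusted p = 0.0625 to 0.0782).

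A further 8 synthetases rose in wild type: Eprs (0.37 ± 0.10), Nars (0.32 ± 0.08), Cars (0.30 ± 0.07), Hars (0.25 ± 0.05), Lars (0.25 ± 0.07), Aars (0.24 ± 0.08), Vars (0.24 ± 0.06) and Gars (0.22 ± 0.07), with adjusted p-values of 6.28e-04 to 0.0321. Hars, for histidine, shares 195 exonic bases with Hars2, its mitochondrial counterpart, on the opposite strand. In AhR-deficient cells these 8 had log2 changes of 0.05 to 0.27 and did not pass. With the number as a block, Eprs (adjusted p = 0.00345), Nars (adjusted p = 0.0129), Gars (adjusted p = 0.0162) and Hars (adjusted p = 0.0430) passed there. The wild-type call of Aars was lost without medium number 1 or 2 or IL-4 number 3 or 7 (adjusted p = 0.0608 to 0.104). That of Gars was lost without medium number 1, 2 or 7 or IL-4 number 1 or 3 (adjusted p = 0.0544 to 0.0679). Wars, for tryptophan, did not pass in AhR-deficient (0.09 ± 0.10, adjusted p = 0.530) or in wild-type cells (0.22 ± 0.08, adjusted p = 0.0532, or adjusted p = 5.29e-04 with the block). Sars and Qars did not pass in either genotype. Qars had 126, 123 and 128 CPM in AhR-deficient IL-4 and 131, 133 and 133 CPM in AhR-deficient medium. Dars, Rars, Iars, Eprs, Lars and Qars belong to the multisynthetase complex, a cytosolic assembly that holds several synthetases on scaffold proteins.

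**Figure D4:**
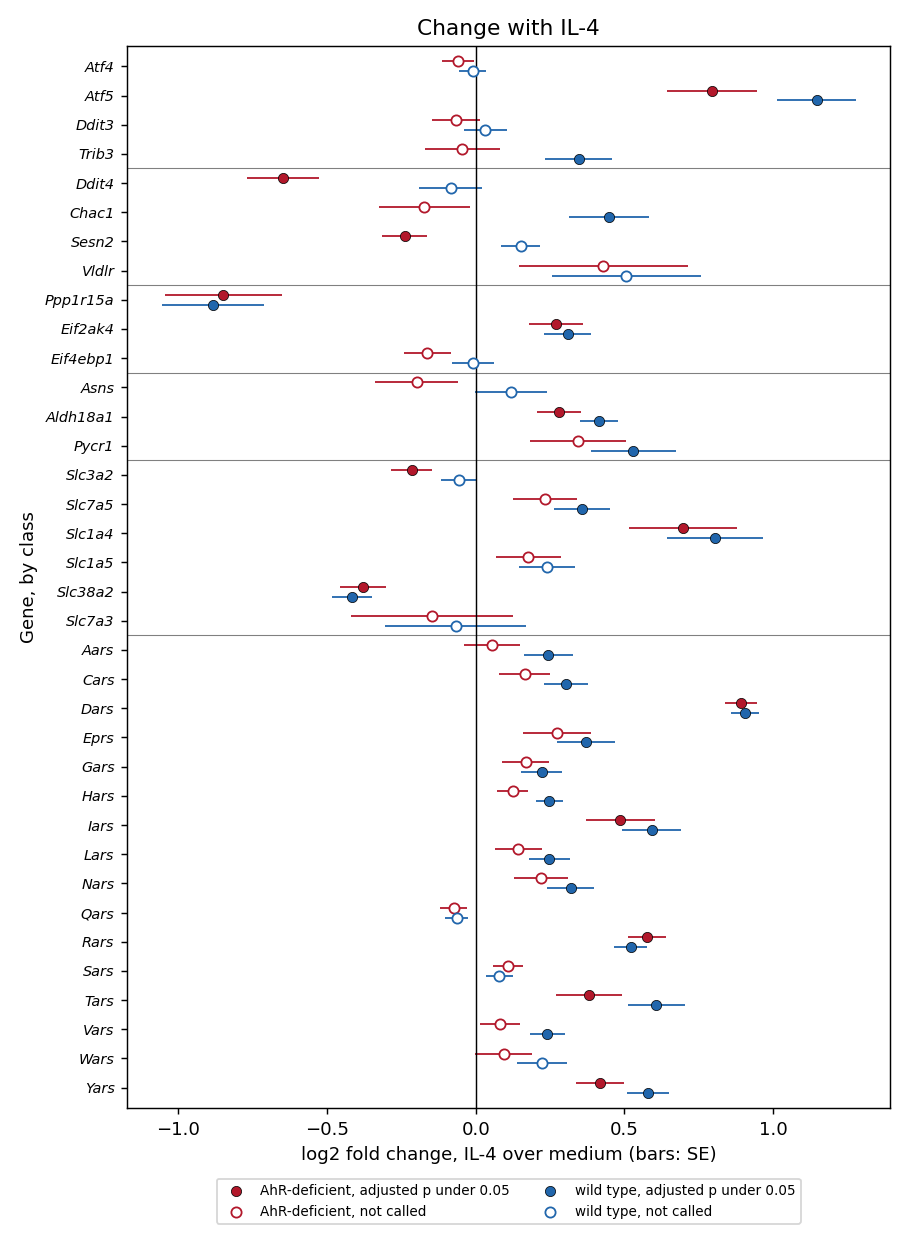
Log2 fold change of IL-4 over medium for each of the 36 members (rows, by class), in AhR-deficient (red) and wild-type cells (blue), with SE bars and filled points where the adjusted p is under 0.05. Dars and Atf5 lie farthest to the right and Ppp1r15a farthest to the left, and Ddit4, Sesn2 and Slc3a2 are filled below 0 in AhR-deficient cells alone.

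Of the regulators, Atf5 rose in both genotypes. It had 360.3, 305 and 324 CPM in AhR-deficient IL-4 and 234, 159 and 177 CPM in AhR-deficient medium (0.79 ± 0.15, adjusted p = 0.00108). In wild type it had 278, 256, 329.8 and 240.2 CPM in IL-4 and 109, 111, 144 and 134 CPM in medium (1.15 ± 0.13, adjusted p = 1.05e-05). The groups were apart in each genotype. Atf5 shares 82 exonic bases on the opposite strand with both Nup62 and Il4i1, which were named after their values were seen. Il4i1 rose by 4.07 ± 0.34, adjusted p = 7.68e-07 in AhR-deficient and 4.93 ± 0.31, adjusted p = 2.56e-08 in wild type, and Nup62 by 0.77 ± 0.06, adjusted p = 7.37e-07 in AhR-deficient and 0.99 ± 0.06, adjusted p = 8.12e-09 in wild type. Their part in the Atf5 counts was not tested. Atf4 had log2 values of -0.06 ± 0.05, adjusted p = 0.473 in AhR-deficient and -0.01 ± 0.05, adjusted p = 0.887 in wild type, and passed in neither. Ddit3 did not pass either (-0.07 ± 0.08, adjusted p = 0.606 in AhR-deficient and 0.03 ± 0.07, adjusted p = 0.775 in wild type). Trib3 did not pass in AhR-deficient (-0.05 ± 0.13, adjusted p = 0.843, higher in 1 of 3 pairs) and rose in wild type (0.35 ± 0.11, adjusted p = 0.0271, higher in 4 of 4 pairs). The wild-type call was lost without medium number 1 or 2 or IL-4 number 1 or 3 (adjusted p = 0.0721 to 0.0846).

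Among the stress effectors, Ddit4 and Sesn2 fell in AhR-deficient cells and Chac1 rose in wild type. Ddit4 had 22.4, 21.5 and 21.6 CPM in AhR-deficient IL-4 and 37.6, 28.97 and 35.96 CPM in AhR-deficient medium (-0.65 ± 0.12, adjusted p = 9.16e-04). In wild type its groups overlapped, with 20.4, 17.5, 17.9 and 18.1 CPM in IL-4 and 16.1, 18.5, 20.4 and 23.3 CPM in medium (-0.08 ± 0.11, adjusted p = 0.588). Sesn2 had 106, 103 and 102 CPM in AhR-deficient IL-4 and 128, 118 and 122 CPM in AhR-deficient medium, without overlap (-0.24 ± 0.08, adjusted p = 0.0270, or adjusted p = 0.00820 with the block). That call was lost without medium number 4 or 6 or IL-4 number 5 or 6 (adjusted p = 0.0616 to 0.102). In wild type Sesn2 had 87.1, 87.5, 91.9 and 86.4 CPM in IL-4 and 68.3, 78.3, 89.4 and 81.7 CPM in medium (0.15 ± 0.07, adjusted p = 0.0894), and passed as higher with the block (0.16 ± 0.05, adjusted p = 0.0290). Chac1 did not pass in AhR-deficient (-0.17 ± 0.15, adjusted p = 0.452) and rose in wild type (0.45 ± 0.14, adjusted p = 0.0188), a call lost without medium number 2 or IL-4 number 1 (adjusted p = 0.0531 and 0.0576). Vldlr was not called in either genotype.

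Ppp1r15a fell in both genotypes, with 28.7, 26.7 and 24.9 CPM in AhR-deficient IL-4 and 51.95, 39.8 and 52.8 CPM in AhR-deficient medium (-0.85 ± 0.20, adjusted p = 0.00437). In wild type it had 17.3, 20.8, 17.9 and 21.6 CPM in IL-4 and 24.3, 36.4, 32.8 and 49.9 CPM in medium (-0.88 ± 0.17, adjusted p = 0.00102). Its IL-4 libraries lay below its medium libraries in each genotype, and wild-type medium was the most spread. Eif2ak4, the GCN2 kinase gene, rose in AhR-deficient (0.27 ± 0.09, adjusted p = 0.0362) and in wild type (0.31 ± 0.08, adjusted p = 0.00642). The AhR-deficient call was kept in 1 of 6 fits, the one without medium number 6, and missed the threshold in the others (adjusted p = 0.0576 to 0.133). Eif4ebp1 did not pass in either genotype, and passed as lower in AhR-deficient cells with the block (-0.16 ± 0.05, adjusted p = 0.0236).

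Of the synthesis genes, Aldh18a1 rose in both genotypes and Pycr1 in wild type. Aldh18a1 had 134, 125 and 143 CPM in AhR-deficient IL-4 and 121, 100.0 and 111 CPM in AhR-deficient medium (0.28 ± 0.07, adjusted p = 0.0105), a call lost without medium number 5 or IL-4 number 6 (adjusted p = 0.0523 and 0.0536). It had 121, 121, 132 and 112 CPM in wild-type IL-4 and 87.7, 89.9, 94.7 and 92.2 CPM in wild-type medium (0.41 ± 0.06, adjusted p = 1.68e-04). The groups were apart in both genotypes. Pycr1 did not pass in AhR-deficient (0.34 ± 0.16, adjusted p = 0.136) and rose in wild type (0.53 ± 0.14, adjusted p = 0.00970). Asns did not pass in AhR-deficient (-0.20 ± 0.14, adjusted p = 0.331) or in wild type (0.12 ± 0.12, adjusted p = 0.494), and passed as lower in AhR-deficient cells with the block (-0.20 ± 0.07, adjusted p = 0.0403).

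The transporters divided by gene. Slc1a4 rose in both genotypes, with 8.09, 7.19 and 8.94 CPM in AhR-deficient IL-4 and 6.01, 3.87 and 5.07 CPM in AhR-deficient medium (0.70 ± 0.18, adjusted p = 0.00966). In wild type it had 6.49, 5.95, 7.01 and 5.87 CPM in IL-4 and 3.94, 2.73, 4.58 and 3.21 CPM in medium (0.80 ± 0.16, adjusted p = 0.00132). Slc38a2 fell in both, with 429.8, 402 and 369.5 CPM in AhR-deficient IL-4 and 529, 518 and 515 CPM in AhR-deficient medium (-0.38 ± 0.08, adjusted p = 0.00178). In wild type it had 371, 394, 387 and 352 CPM in IL-4 and 438, 533, 499 and 536 CPM in medium (-0.42 ± 0.07, adjusted p = 2.17e-04). Neither gene's groups overlapped in either genotype. Slc7a5 passed in AhR-deficient with the block alone (0.24 ± 0.05, adjusted p = 0.00257), and rose in wild type (0.36 ± 0.09, adjusted p = 0.00880). Its partner Slc3a2 fell in AhR-deficient (-0.22 ± 0.07, adjusted p = 0.0305) and did not pass in wild type (-0.06 ± 0.06, adjusted p = 0.511). The Slc3a2 call was kept in 1 of 6 fits, the one without medium number 5, with adjusted p-values of 0.0555 to 0.111 in the others. Slc1a5 did not pass, except with the block in wild type (0.24 ± 0.06, adjusted p = 0.00916), and Slc7a3 was not called.

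The interaction, which is the AhR-deficient IL-4 response minus the wild-type one, was called for 0 of 36 members by edgeR with or without the block, by DESeq2 and by limma-voom. Over all genes edgeR called 0% too and DESeq2 3 genes, so the test does not show that the responses are alike. At an unadjusted p under 0.05 there were 4 members (11.1%, against 3.78% of all genes). They were Sesn2 (-0.39 ± 0.10, edgeR unadjusted p = 0.00162), Ddit4 (-0.56 ± 0.16, unadjusted p = 0.00344), Chac1 (-0.62 ± 0.20, unadjusted p = 0.00909) and Trib3 (-0.39 ± 0.17, unadjusted p = 0.0369), each with an adjusted p of 1. With the block there were 12 (33.3%, against 8.48% of all genes), and Sesn2 had an adjusted p = 0.208. The estimate was below 0 for 32 of 36 members, with a median of -0.12, against 53.5% of all genes and a median of -0.01. By pairs, Sesn2 was higher in IL-4 in 0 of 3 AhR-deficient pairs (log2 change -0.27 to -0.19) and in 4 of 4 wild-type pairs (0.04 to 0.35). Dars (-0.01 ± 0.07), Rars (0.06 ± 0.08), Ppp1r15a (0.04 ± 0.26) and Slc38a2 (0.04 ± 0.10) had estimates within their SE of 0. The interaction and the genotype differences share all their libraries and are not separate evidence.

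Members with and without the promoter element were set side by side, without a test. In IL-4 the 11 genes with the element had a median AhR-deficient to wild-type log2 difference of 0.24 and the 14 without it 0.24, and in medium 0.40 and 0.36. For the IL-4 change, the 11 had a median of 0.34 in AhR-deficient (4 rose, 0 fell) and 0.51 in wild type (9 rose, 0 fell). The 14 without it had -0.06 in AhR-deficient (4 rose, 5 fell) and 0.06 in wild type (5 rose, 2 fell). The 11 members with no window had 0.14 in AhR-deficient (1 rose, 0 fell) and 0.25 in wild type (7 rose, 0 fell). Of all genes 15.4% rose and 14.2% fell in AhR-deficient, and 19.4% and 16.5% in wild type. Synthetases made up 5 of the 11 with the element, and the part of gene class in this comparison was not tested. Among other ATF4 targets, outside the members, Atf3, Jdp2, Nupr1, Pck2, Slc7a11 and Herpud1 had the element in a window. Mean CPM was higher in IL-4 than in medium in both genotypes for Atf3 and Jdp2. It was lower in both for Nupr1, Pck2, Slc7a11 and Herpud1. In medium, 6 of the 11 with the element, 9 of the 14 without it and 3 of the 11 with no window were called higher in AhR-deficient cells (4.16% of all genes).

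Other genes of the pathway, outside the 36, gave the following counts. With IL-4, 15.4% of all genes rose and 14.2% fell in AhR-deficient, and 19.4% rose and 16.5% fell in wild type. With the number as a block, these shares of all genes were 18.4% and 17.8% in AhR-deficient, and 22.8% and 19.9% in wild type. Of 7 further cytosolic synthetase and scaffold genes, 5 rose and 0 fell with IL-4 in AhR-deficient and 6 rose and 0 fell in wild type. Farsb, for a subunit of the phenylalanine synthetase, rose by 0.65 ± 0.07, adjusted p = 8.25e-06 in AhR-deficient and 0.65 ± 0.06, adjusted p = 1.60e-06 in wild type. Of 17 mitochondrial synthetase genes, 7 rose in AhR-deficient and 6 in wild type, and 0 fell in either. With the block 6 rose and 0 fell in AhR-deficient, and 6 rose and 1 fell in wild type. Ears2, for glutamate, rose by 0.99 ± 0.14, adjusted p = 8.55e-05 in AhR-deficient and 0.97 ± 0.12, adjusted p = 2.05e-05 in wild type. Of 13 genes of eIF2 kinases and eIF2 factors, 8 rose in each genotype, 0 fell in AhR-deficient and 1 fell in wild type. Eif2b2, for a subunit of the exchange factor that recharges eIF2, rose by 1.47 ± 0.08, adjusted p = 1.20e-08 in AhR-deficient and 1.76 ± 0.07, adjusted p = 2.67e-10 in wild type. Of 22 other ATF4 targets, 6 rose and 5 fell in AhR-deficient, and 9 rose and 4 fell in wild type. With the number as a block these were 8 and 8 in AhR-deficient, and 11 and 6 in wild type. Stc2, for a secreted glycoprotein, rose by 2.42 ± 0.34, adjusted p = 8.09e-05 in AhR-deficient and 2.44 ± 0.36, adjusted p = 1.06e-04 in wild type. Its level was low, with means of 2.91 CPM in AhR-deficient IL-4, 0.538 in AhR-deficient medium, 0.709 in wild-type IL-4 and 0.126 in wild-type medium. Slc7a11, for the cystine transporter, fell in AhR-deficient (-2.17 ± 0.32, adjusted p = 1.24e-04) and in wild type (-1.85 ± 0.28, adjusted p = 1.25e-04).

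Between genotypes, 3 of these 22 targets were higher and 0 lower with AhR deficiency in IL-4 (median log2 difference 0.26), and 11 were higher and 0 lower in medium (median 0.39). Over all genes 0.956% and 0.664% were called higher and lower in IL-4, and 4.16% and 3.95% in medium. In medium, 1 of the 7 further cytosolic synthetase and scaffold genes and 3 of the 13 eIF2 genes were higher and 0 lower, and of the 17 mitochondrial synthetase genes 0 were higher and 2 lower. In IL-4 0 genes of these 3 lists were called. Slc7a11 differed by 1.43 ± 0.29, adjusted p = 0.0328 in IL-4 and 1.75 ± 0.28, adjusted p = 0.00570 in medium. Stc2, at the low levels given above, differed by 2.03 ± 0.30, adjusted p = 0.00630 in IL-4 and 2.05 ± 0.39, adjusted p = 0.0115 in medium. Mthfd2, for an enzyme of mitochondrial folate metabolism, was higher in medium (0.50 ± 0.09, adjusted p = 0.0106). The ATF4 element was in the window of 6 of 21 other ATF4 targets. It was in 0 of 7 further cytosolic synthetase and scaffold genes, 0 of 10 eIF2 genes and 0 of 14 mitochondrial synthetase genes.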

How the data were processed

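RNA was sequenced from 14 libraries of mouse bone marrow monocytes (500 ng of RNA, a stranded mRNA kit, paired reads of 100 nt, per the labels). The authors deposited raw counts per gene for Ensembl identifiers. STAR, FastQC and mm10 are named, per the submitters' processing notes; no source used here gives the counter, annotation or strand setting. Of 55487 identifiers, 55094 matched GENCODE M21 with their version.

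The members and lists were chosen with earlier results of these data known. Members were found by symbol and all are named in the text or figures; other genes come from lists of the pathway and of cell type markers. Counts were scaled by TMM and filtered with filterByExpr over the 4 groups (14754 genes kept). edgeR 4.0.16 in R 4.3.3 fitted all 14 libraries with 1 mean per group (10 residual degrees of freedom), and quasi-likelihood tests gave 5 comparisons, with Benjamini-Hochberg adjusted p-values over all genes and a threshold of 0.05. Log2 values are given with their SE. Alternatives used DESeq2 1.42.0, limma 3.58.1, other scalings and filters, only the groups compared, and left-out libraries. The scripts were tested on simulated data.

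Same-numbered IL-4 and medium libraries deviated together over 9687 genes (7 pairs, r of 0.157 to 0.733, every pair over 0.1), so the number was also used as a block. In 6 of 7 pairs both libraries correlated best with their own number, and the exception was wild-type number 7 (r = 0.157). Replicate libraries differed by more than sampling noise (chi-square per degree of freedom 13.8 to 60.0). Depth was 33432502 to 42885079 counts per library, so low members such as Vldlr and Slc7a3 are the least precise.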

Additional observations from a re-analysis of the deposited data

Results flagged for a closer look

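The IL-4 response of Sesn2, which encodes the leucine sensor sestrin 2, went in opposite directions in the paired libraries of the genotypes. Its log2 change was below 0 in 3 of 3 AhR-deficient pairs (-0.27 to -0.19) and above 0 in 4 of 4 wild-type pairs (0.04 to 0.35). The difference of the responses, AhR-deficient minus wild type, was -0.39 on the log2 scale and did not pass edgeR's test of the interaction over all genes (adjusted p = 1, or 0.208 with the block).

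In wild-type IL-4, number 3 stood apart from the other libraries of its group for a pair of synthetase genes. Cars had 238 CPM in number 3 and 214 to 218 CPM in the other 3 libraries, a gap of 0.840 of the group's range. Tars had 215 CPM in number 3 and 178 to 181 CPM in the others, a gap of 0.908 of the range. Across the members, 72 groups of 4 libraries were examined in this way and 2 stood out, where chance gives about 1 in 20, or 3.6. That number takes the genes as independent of each other. As a mean deviation in log2 CPM over the 16 synthetases, number 3 stood at 0.192 in wild-type IL-4, against 0.0421 to 0.0849 in the others of the group. In wild-type medium it stood at -0.112, against -0.386 to -0.251.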

How the results depend on the processing

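The members called numbered 14 and 23 for IL-4 in AhR-deficient and wild-type cells, 5 and 18 for genotype in IL-4 and in medium, and 0 for the interaction. With only the groups compared in the fit, genotype gave 11 calls in IL-4 and 5 in medium (523 and 59 over all genes, against 239 and 1197). DESeq2 gave 11 for genotype in IL-4 (802 over all genes). Without wild-type numbers 1 and 2, the calls were 13 for IL-4 in wild type, 2 for genotype in IL-4 and 6 for genotype in medium (3832, 25 and 30 over all genes, against 5296, 239 and 1197). The cause of these shifts was not tested. Leaving out 1 library gave 10 to 13 calls for IL-4 in AhR-deficient, 19 to 25 for IL-4 in wild type, 1 to 5 for genotype in IL-4, 7 to 25 for genotype in medium and 0 to 0 for the interaction. Over all genes these fits gave, in the same order, 3621 to 3906 (against 4359), 4644 to 5374, 24 to 315, 95 to 1716 and 0 calls. With the replicate number as a block, IL-4 gave 21 calls in AhR-deficient and 26 in wild type, and the interaction 0 (5344, 6297 and 0 over all genes). As a random effect in limma-voom the block gave 7 for genotype in IL-4 and 22 in medium (420 and 1375 over all genes). For IL-4 and the interaction the block changed no other call of a member than those given for single genes. Without wild-type number 7, an alternative chosen after seeing the data, the calls were 13, 22, 5, 16 and 0 in the order of the first sentence (4267, 4138, 267, 1245 and 0 over all genes). With autosomal genes alone, also chosen then, genotype gave 5 and 18 (175 and 1135 over all genes). Over 60 single-gene calls, 920 repeats under alternatives stayed past the threshold and 132, in 32 of the calls, did not. In 0 did the direction turn. Only calls of the main fit were followed, and the alternatives reused the same libraries, so these repeats are not separate evidence. With 3 or 4 libraries a group, small changes of low genes such as Vldlr and Slc7a3 were not detectable.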
